A study of Mus musculus with 11 samples.

Results

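The transcription factors that make and keep pancreatic beta cells were followed in RNA of whole islets from mice with the P33T exchange in PDX1. They comprised 10 genes, *Pdx1*, *Mafa*, *Nkx6-1*, *Nkx2-2*, *Neurod1*, *Pax6*, *Isl1*, *Foxa2*, *Rfx6* and *Insm1*, taken by name through their Ensembl gene IDs from the 19329 IDs of the deposited table. All 10 had a value in every mutant library. Male mice aged 14 weeks gave 6 wild-type libraries and 5 that carry the allele on both chromosomes (PDX1 P33T/P33T, here PDX1 P33T). The allele is a germline point mutation made by CRISPR-Cas9 in the inbred C57BL/6N strain, so every cell of the mutant carries it. Islets were cultured after isolation and no treatment was given. The legend of the study speaks of 6 mice for each replicate, so a library may be a pool of mice and n counts libraries. The p-values below measure the spread between these libraries.

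These factors form a small network. PDX1 opens pancreas development in the embryo and later drives insulin and glucose transporter genes in beta cells, and loss of its dose causes a monogenic diabetes, MODY. NKX6-1, NKX2-2, PAX6 and ISL1 are homeodomain proteins like PDX1, MAFA is a leucine zipper activator of insulin genes, NEUROD1 is a helix-loop-helix protein, FOXA2 a forkhead factor, RFX6 a winged-helix factor and INSM1 a zinc finger protein. *Mafa* and *Nkx6-1* mark mature beta cells, whereas *Pax6*, *Isl1*, *Neurod1*, *Rfx6* and *Insm1* are also used by the other endocrine cells of the islet. RNA of whole islets mixes all of these cells, so fewer cells of a type and less RNA per cell cannot be told apart.

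Expression was given as FPKM, the reads on a gene divided by the length of its exons and by the library's depth. The steps of these values returned the reads counted, from 19311937 to 37094286 in wild-type libraries and from 23731684 to 36865206 in PDX1 P33T libraries. The beta cell markers were abundant in each mutant library, with *Ins2* between 135342 and 177811 FPKM and *Ucn3* between 514 and 622 FPKM. Markers of exocrine acinar cells were low, and their 10 genes summed to between 8.80 and 121 FPKM, with *Ctrb1* as the most abundant of them and 0 of the 10 at 0 in all libraries.

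Among the mutant libraries, 1 stood apart and 2 pairs lay close together. Replicate 2 had the highest or the lowest value of the 5 for 78.3% of 11190 genes that averaged 1 FPKM or more, against 22.2% to 39.5% for the other replicates. Replicates 1 and 4, and likewise replicates 3 and 5, were closer to each other than any other 2 libraries. Across genes with a mean of 20 reads or more, the median chi-square of their reads was 1.17 and 1.15, against 2.49 to 3.30 for the other pairs without replicate 2, 7.91 to 10.9 for pairs with replicate 2 and 1.79 to 16.6 for wild-type pairs. Counting error alone gives 0.455, so the reads of the close pairs differed by more than counting, and they were kept as separate libraries. Whether they come from separate mice cannot be read from this value, since it sets aside counting error only. Results are also given without replicate 2 or with each close pair averaged, which leaves 3 samples.

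The wild-type columns of the deposited table stand on the rows of other genes for most IDs, and a wild-type level was used only where its row was identified. The reads of a supplementary table of the study gave the row of *Rfx6*. Length and level together gave those of *Mafa* and *Pax6*, since no other gene or row of the same recovered length lay within 16-fold of them. A narrower distance of 4-fold, chosen after the data were seen, also gave that of *Isl1*, once the row that the supplementary reads gave to *Klhl7*, a gene of the same length and a like level, was taken out. For *Pdx1* and *Nkx6-1* no wild-type row of their length and level was found, and *Nkx2-2*, *Neurod1*, *Foxa2* and *Insm1* kept more than 1 reading. Levels and spread are therefore described for all 10 genes in the mutant islets, and the genotypes are compared for 4.

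*Pdx1* itself, the mutated gene, was expressed at 78.71, 79.999, 79.82, 78.69 and 77.88 FPKM in replicates 1 to 5, with a mean of 79.0 ± 0.881 FPKM (SD, n = 5). The edit is shown here because it defines the mutant group. The study states that cohort mice came from homozygous crosses, though it calls the wild-type mice littermates. A difference between litters or lines may therefore not be separable from the allele. The guide RNA of 20 bases matched the minus strand of exon 1 at chr5:147270338-147270357 in GRCm38. The donor oligonucleotide of 120 bases covered chr5:147270275-147270394 on the plus strand, within the coding part of exon 1 of 2. In the first line the capitals mark the 3 bases next to the guide, which Cas9 needs for cutting (its PAM), and in the next 2 they mark codon 33.
guide: cggcccatgtacaggcacgcAGG
reference: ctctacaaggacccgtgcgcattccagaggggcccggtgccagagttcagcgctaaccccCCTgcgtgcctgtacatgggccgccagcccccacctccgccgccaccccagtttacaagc
donor: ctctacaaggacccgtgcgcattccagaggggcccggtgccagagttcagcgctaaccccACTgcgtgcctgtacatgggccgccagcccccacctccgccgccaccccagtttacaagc

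Counted from 1 at its 5′ end, the donor carried the single change C61A against the reference, which turned the PAM from AGG into AGT. FPKM do not resolve alleles, so the genotype of a library could not be read from these values. The 5 *Pdx1* levels lay close together, and none of the replicates stood apart from the rest.

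**Figure D1:**
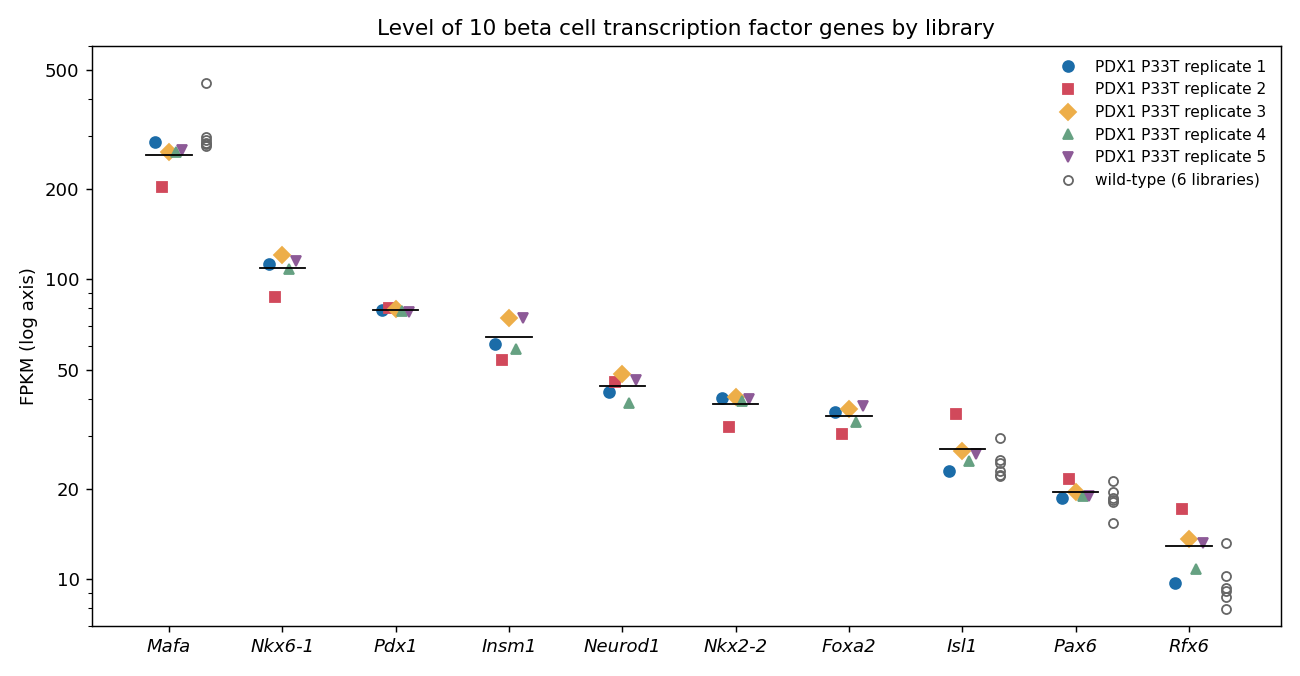
Level of each of the 10 genes (FPKM, log axis), ordered by mean. Filled symbols are the 5 PDX1 P33T libraries, the black line their mean, and open circles the 6 wild-type libraries of the genes whose wild-type row was identified. Replicate 2, the red square, is the lowest library for *Mafa*, *Nkx6-1*, *Insm1*, *Nkx2-2* and *Foxa2* and the highest for *Isl1*, *Pax6* and *Rfx6*, while the *Pdx1* values lie on top of each other.

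The other homeodomain genes were ordered *Nkx6-1*, *Nkx2-2*, *Isl1* and *Pax6*. *Nkx6-1*, which represses alpha cell genes in beta cells, measured 112, 87.2, 121, 108 and 115 FPKM in replicates 1 to 5, a mean of 109 ± 12.8 FPKM (SD, n = 5). Replicate 2 was below the other 4, which spanned 108 to 121 FPKM. *Nkx2-2*, a partner of Groucho corepressors that also acts on the insulin promoters, measured 40.2, 32.2, 40.5, 39.4 and 39.8 FPKM, a mean of 38.4 ± 3.51 FPKM. Again replicate 2 alone was low, and the SD of the other 4 on the log2 scale was 0.017 against 0.14 with it.

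*Isl1*, a LIM homeodomain gene needed for the survival of endocrine cells, went the other way. Its 5 values were 22.9, 35.5, 26.7, 24.9 and 26.2 FPKM, a mean of 27.2 ± 4.85 FPKM, and replicate 2 was the highest. *Pax6*, a paired-domain gene of all islet endocrine cells, measured 18.6, 21.6, 19.6, 18.9 and 19.0 FPKM, a mean of 19.5 ± 1.19 FPKM. Here too replicate 2 was above the rest, by 0.18 on the log2 scale against 0.50 for *Isl1*.

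*Mafa*, the leucine zipper gene of mature beta cells, was the most abundant of the 10. Its values were 287, 203, 267, 266 and 271 FPKM, a mean of 259 ± 32.5 FPKM, which placed it at rank 113 of 18963 genes and gave it 37.6% of the summed FPKM of the set. Replicate 2 was 0.43 lower on the log2 scale than the mean of the others. The helix-loop-helix gene *Neurod1*, an activator of insulin transcription, measured 42.2, 45.6, 48.2, 38.6 and 46.3 FPKM, a mean of 44.2 ± 3.77 FPKM. For this gene alone replicate 2 lay inside the range of the other 4.

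*Foxa2*, a forkhead pioneer factor upstream of *Pdx1*, measured 36.2, 30.5, 36.9, 33.5 and 37.7 FPKM, a mean of 35.0 ± 2.94 FPKM. *Insm1*, a zinc finger factor of endocrine progenitors and mature islet cells, measured 60.7, 53.7, 74.4, 58.8 and 74.2 FPKM, a mean of 64.3 ± 9.45 FPKM. Its values followed the close pairs, with 74.4 and 74.2 FPKM in replicates 3 and 5 and 60.7 and 58.8 FPKM in replicates 1 and 4. *Rfx6*, whose loss in people causes neonatal diabetes, was the least abundant at 9.70, 17.1, 13.6, 10.8 and 13.2 FPKM, a mean of 12.9 ± 2.89 FPKM. It showed the same 2 levels in the pairs and was highest in replicate 2.

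The means spanned 20.1-fold from *Mafa* to *Rfx6*, and 9 of the 10 genes were in the top 10% of expressed genes. In the order *Mafa*, *Nkx6-1*, *Pdx1*, *Insm1*, *Neurod1*, *Nkx2-2*, *Foxa2*, *Isl1*, *Pax6* and *Rfx6*, the 5 values of neighbours did not overlap in 6 of 9 cases. *Neurod1* and *Nkx2-2*, *Nkx2-2* and *Foxa2*, and *Foxa2* and *Isl1* overlapped, although *Nkx2-2* was above *Foxa2* in each of the 5 libraries and the others kept their order in 4 of 5. Each gene kept its place with medians, after rescaling and without any 1 replicate. The order rests on the gene length used. FPKM divide by all exons of a gene, 11694 bases for *Pax6*, whose longest transcript has 4427 bases, and per base of the longest transcript *Pax6* came to 51.6 FPKM and moved from place 9 to place 6, with *Nkx2-2* at 52.1, *Neurod1* at 44.2, *Isl1* at 42.9 and *Foxa2* at 38.9 FPKM.

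The spread between the mutant libraries differed widely among the 10 genes. The coefficient of variation ran from 1.12% for *Pdx1* to 22.4% for *Rfx6*, with *Isl1* at 17.8%, *Insm1* at 14.7%, *Mafa* at 12.6% and *Pax6* at 6.10%. *Pdx1* was read 4097 to 6196 times per library, for which counting error alone gives 1.44%, so no spread beyond counting was seen. Of the 719 genes with a mean within 2-fold of it, 0% had a smaller SD. *Rfx6*, with 1046 to 1948 reads and a counting error of 2.66%, had a larger SD than 86.3% of the 3426 genes of like level. Without replicate 2 the coefficients of variation of *Mafa*, *Nkx6-1* and *Nkx2-2* came down to 3.62%, 4.48% and 1.18%. Those of *Isl1*, *Pax6* and *Foxa2* came down to 6.77%, 2.05% and 5.08%. *Insm1* and *Rfx6* were still at 12.6% and 15.9%, and *Neurod1* went from 8.53% to 9.71%.

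**Figure D2:**
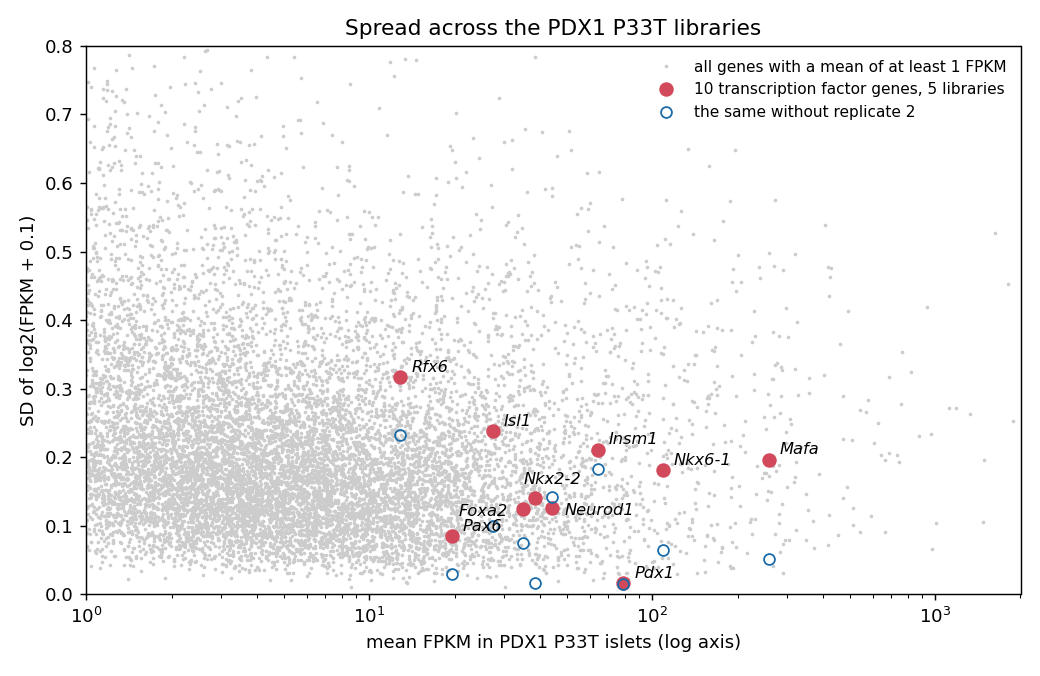
SD of log2(FPKM + 0.1) over the PDX1 P33T libraries against mean FPKM (log axis). Grey points are all genes with a mean of at least 1 FPKM within the axes, red points the 10 genes over 5 libraries (SD 0.016 for *Pdx1*, 0.32 for *Rfx6*) and blue circles the same without replicate 2. *Pdx1* lies at the lower edge of the cloud and *Rfx6* in its upper part.

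In replicate 2, 8 of the 10 genes moved along the base composition of their transcripts. Relative to the mean of the other 4 libraries it was lower for *Mafa*, *Nkx6-1*, *Nkx2-2*, *Insm1* and *Foxa2*, by 0.24 to 0.43 on the log2 scale, and higher for *Rfx6* (0.55), *Isl1* (0.50) and *Pax6* (0.18). The 5 lower genes have a GC content of 55.7% to 65.0% in their longest transcript, and the 3 higher ones 44.8% to 49.3%, where the median of all genes is 50%. Across 11032 genes the same difference had a Pearson's r of -0.44 and a Spearman's rho of -0.48 with GC content. It was 0.38 among the genes with the lowest GC content (31.2% to 44.1%) and -0.28 among those with the highest (55.7% to 75.5%), as medians of 2207 genes each. Genes of 1 library share its depth and preparation and are not independent replicates.

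*Pdx1*, with 55.7% GC, and *Neurod1*, with 43.6%, were exceptions. Their differences in replicate 2 were 0.02 and 0.06, whereas *Nkx2-2*, with nearly the same GC content as *Pdx1*, was lower by 0.31. Once each library's trend along GC content was taken out, a step chosen after the data were seen, replicate 2 differed from the others by -0.09 for *Mafa*, -0.12 for *Nkx6-1*, -0.14 for *Nkx2-2*, -0.03 for *Foxa2* and 0.00 for *Insm1*. It still differed by 0.31 for *Isl1*, 0.32 for *Rfx6* and 0.13 for *Pax6*, and now by 0.19 for *Pdx1* and -0.22 for *Neurod1*. The SD of *Pdx1* rose with it from 0.016 to 0.10 and that of *Insm1* from 0.21 to 0.26, while that of *Mafa* fell from 0.20 to 0.11, so the narrow range of *Pdx1* holds for FPKM as deposited and not after this step.

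**Figure D3:**
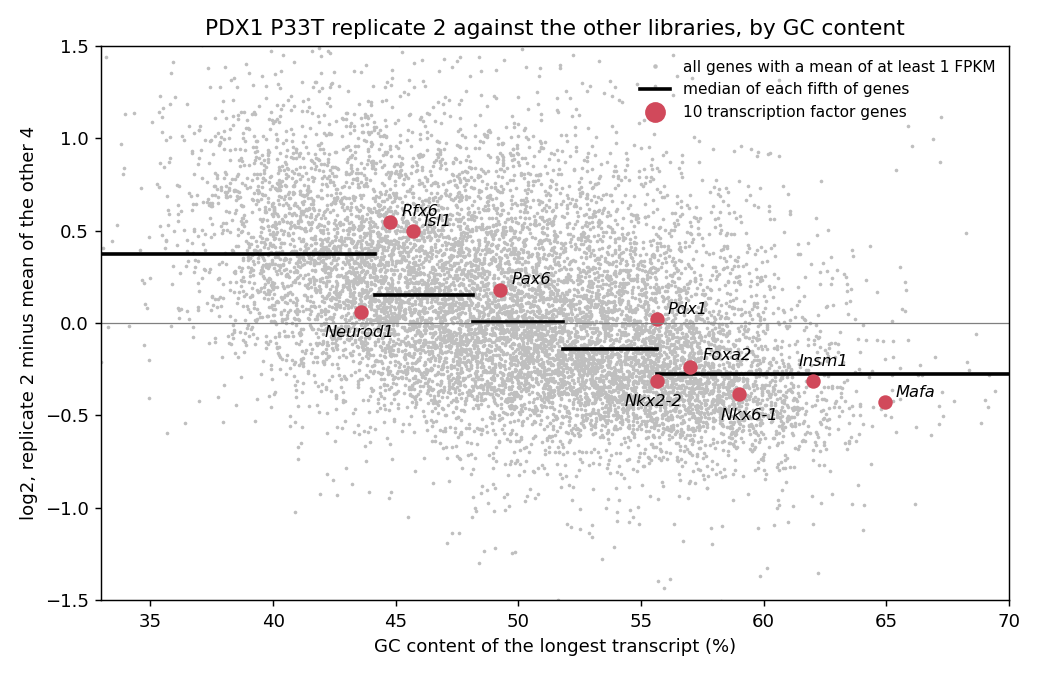
Difference of PDX1 P33T replicate 2 from the mean of the other 4 mutant libraries (log2 scale) against GC content of the longest transcript (%). Grey points are genes with a mean of at least 1 FPKM within the axes, black lines the medians of 5 equal bins of GC content, and red points the 10 genes. The medians fall from 0.38 to -0.28, and *Rfx6*, *Isl1* and *Pax6* lie on the upper left, *Mafa*, *Insm1* and *Nkx6-1* on the lower right.

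Markers of islet and other cells were set beside all genes in replicate 2. It was the highest mutant library for 41.4% of the 11190 genes and the lowest for 36.9%. The counts below are descriptions beside these shares. All 10 acinar genes were above the other 4 libraries, with a sum of 121 FPKM against 8.80 to 20.4 FPKM, and *Ctrb1* at 41.5 FPKM against 2.51 to 6.52 FPKM. All 5 endothelial genes were below them, with a sum of 60.7 FPKM against 99.3 to 136 FPKM. Of the 6 beta cell markers 4 were above and 1 (*Ucn3*) below, of 8 alpha cell markers 2 were above and 5 below, and of 6 stromal genes 3 were below. Of 5 macrophage genes 3 were below, of 6 ductal genes 1 was above and 3 were below, of 4 delta cell genes 1 was above and 1 below, and of 3 lymphocyte genes 1 was above and 2 below, while the PP, epsilon and Schwann cell markers lay inside the range of the other 4. The part of these cells in the values of the 10 genes was not tested.

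The close pairs also differed in cell markers. *Ppy*, the hormone of PP cells, was at 9821 and 7857 FPKM in replicates 1 and 4 and at 2916 and 3024 FPKM in replicates 3 and 5. *Ghrl*, the hormone of epsilon cells, was at 1.86 and 1.81 against 0.37 and 0.33 FPKM. GC content ran along the same split, since replicates 1 and 4 had r of 0.48 and 0.41 with it and replicates 3 and 5 had -0.03 and -0.08. *Rfx6*, *Insm1* and *Neurod1*, the 3 genes with the largest coefficients of variation without replicate 2, were lower in replicates 1 and 4 than in 3 and 5, and the part of either difference in this was not tested.

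The comparison of genotypes asked whether the mutant islets hold different amounts of the RNAs of these factors. None of the 4 genes with a wild-type row was called in limma on log2(FPKM + 0.1), where a call needed a change of 1.5-fold or more and an adjusted p no higher than 0.05. The median of all genes in the fit was -0.06 on the log2 scale. In the same fit 0.0423% of 4725 genes were called higher (2 genes, *Pigr* and *Prkg2*) and 0.0423% lower (2 genes, *Osbpl5* and *Mettl13*). The libraries of the 2 genotypes did not overlap for 4.85% of the genes tested and for 0 of *Mafa*, *Pax6* and *Rfx6*, which this fit holds. At an unadjusted p under 0.05 the share was 34.0%, but it depended on how the row was found. It was 87.1% among the 1673 genes placed by the supplementary reads, *Rfx6* among them, and 4.88% among the 3052 placed by length and level. The part of the supplementary table at hand thus holds mostly genes with a low unadjusted p, of which few were called, and values of genes placed by it are given as descriptions. Genes placed by length and level, *Mafa* and *Pax6* among them, are those outside that part whose means lay within 4-fold. A low unadjusted p was thus made rarer among them by how they were placed.

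*Mafa* measured 278, 453, 284, 297, 291 and 283 FPKM in wild-type replicates 1 to 6, a mean of 314 ± 68.3 FPKM (SD, n = 6), against 259 ± 32.5 FPKM in the mutant. In the mutant 4 of the 5 libraries were below each wild-type library and replicate 1 was inside their range. The log2 difference was -0.27 (SE 0.14, 95% interval -0.58 to 0.05), with an adjusted p of 0.79 in limma. A two-sided exact permutation test of this gene alone gave p = 0.017 (n = 5 against 6), and with the close pairs averaged p = 0.024 (exact, n = 3 against 6), the smallest that such a split allows. Wild-type replicate 2 was 453 FPKM where the other 5 spanned 278 to 297, and without it the difference was -0.16. Without replicate 2 of both groups it was -0.07, with p = 0.063 in the exact permutation test (n = 4 against 5). With the GC trend taken out it was 0.10, in the other direction.

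*Pax6* was at 21.2, 18.4, 15.4, 19.5, 18.7 and 18.1 FPKM in wild-type, a mean of 18.5 ± 1.91 FPKM, and at 19.5 ± 1.19 FPKM in the mutant. The groups overlapped. The log2 difference of 0.08 (SE 0.09, 95% interval -0.11 to 0.27) had an adjusted p of 1.00 in limma and a p of 0.31 in the exact permutation test (n = 5 against 6). This interval leaves room for fold changes from 0.924 to 1.21. The difference was 0.03 without wild-type replicate 3, 0.04 without mutant replicate 2 and 0.12 without wild-type replicate 1.

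*Isl1*, under the narrower rule, was at 29.6, 22.9, 22.1, 24.9, 24.4 and 22.3 FPKM in wild-type, a mean of 24.4 ± 2.81 FPKM, and at 27.2 ± 4.85 FPKM in the mutant. The highest library of each group, wild-type replicate 1 and mutant replicate 2, stood above the rest of its group. The log2 difference was 0.15 (SE 0.12, 95% interval -0.10 to 0.41), with an adjusted p of 1.00 in limma and p = 0.26 in the exact permutation test (n = 5 against 6). It was 0.05 without mutant replicate 2, 0.04 without replicate 2 of both groups and 0.06 with the GC trend taken out. Under this rule 0.0598% of 6685 genes were called higher and 0.0598% lower.

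*Rfx6* measured 13.2, 9.15, 7.97, 10.2, 9.34 and 8.71 FPKM in wild-type, a mean of 9.77 ± 1.84 FPKM, against 12.9 ± 2.89 FPKM in the mutant, a ratio of 1.32. The groups overlapped, since wild-type replicate 1 was higher than mutant replicates 1, 4 and 5. On the log2 scale the mutant was higher by 0.39 (SE 0.16, 95% interval 0.05 to 0.73), with an adjusted p of 0.52 in limma. The exact permutation test gave p = 0.052 (n = 5 against 6), 0.048 with the close pairs averaged and 0.17 without replicate 2 of both groups. As its row came from the supplementary reads, where 87.1% of genes had an unadjusted p under 0.05, these values are a description. Without replicate 2 of both groups the difference was 0.26, and with the GC trend taken out 0.27.

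**Figure D4:**
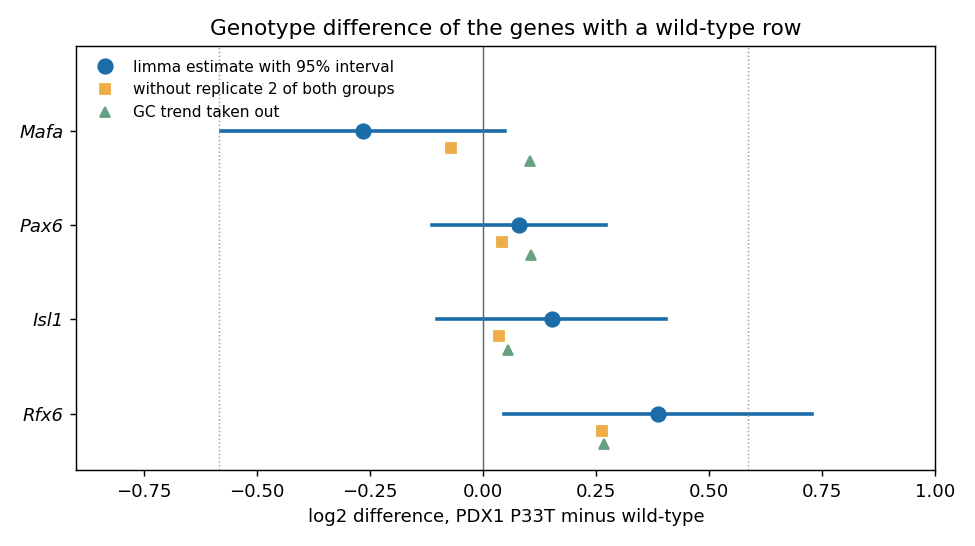
Genotype difference of the 4 genes with an identified wild-type row, PDX1 P33T minus wild-type on the log2(FPKM + 0.1) scale. Blue points and lines are the limma estimate and its 95% interval, squares the estimate without replicate 2 of both groups, triangles that with the GC trend taken out, and dotted lines a fold change of 1.5. The interval of *Mafa* runs from -0.58 to 0.05 and its triangle lies on the other side of 0, while the 3 estimates of *Rfx6* lie between 0.26 and 0.39.

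Wild-type replicate 1 was the highest wild-type library for *Rfx6*, *Isl1* and *Pax6* and the lowest for *Mafa*, the same order that mutant replicate 2 showed in its group. This library too differed from its group along GC content, with an r of -0.32 over 3540 genes, a median of 0.25 in the 708 genes of lowest GC content and -0.23 in the 708 of highest. Wild-type replicate 4 had r of -0.35 without that order, since its *Mafa* level of 297 FPKM was the second highest of the group. Wild-type replicate 2, the high *Mafa* library, had r of 0.15. It also had the lowest summed level of the 3 alpha cell markers with a wild-type row, 4724 FPKM against 7552 to 11210 FPKM in the other wild-type libraries, and the highest of 4 stromal genes, 27.1 against 1.46 to 5.72 FPKM. The 3 macrophage markers with a wild-type row summed to 57.3 FPKM in replicate 2 and 55.4 FPKM in replicate 3, against 22.1 to 30.6 FPKM in the other 4. Wild-type replicate 3 was the lowest wild-type library for *Rfx6*, *Isl1* and *Pax6*, with r of 0.28. Its 3 endothelial markers with a wild-type row summed to 146 FPKM against 28.1 to 62.5 FPKM in the others, and its 2 PP cell markers to 24082 against 9998 to 15078 FPKM. Between the genotypes the ranges of the marker sums overlapped, and 0 of these markers were called in limma. In the mutant the same genes summed to 17.2 to 27.4 FPKM for macrophages and 22.0 to 51.4 FPKM for endothelial cells. For 2 delta cell markers the sum was 5071 to 6695 FPKM in the mutant and 4311 to 10590 FPKM in wild-type. For 4 beta cell markers it was 236059 to 334039 and 200330 to 281079 FPKM. The part of these differences in the values of the 4 genes was not tested.

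For 5 of the remaining 6 genes rows of the right length are given without a comparison, and *Nkx6-1* had none. A single wild-type row had the length of *Insm1*, at 57.5 FPKM on average, but *Ppme1*, at 30.7 FPKM in the mutant, has the same length. A pair of rows had that of *Neurod1*, at 37.8 and 26.6 FPKM, beside *Ccdc92* at 25.3 FPKM in the mutant. *Foxa2* had 3 rows within 4-fold, at 32.0, 23.8 and 12.9 FPKM, beside *Psma4* at 27.5 FPKM in the mutant. The nearest row for *Nkx2-2* was at 10.9 FPKM, beside *Mrps16* at 12.7 FPKM, and the row of the length of *Pdx1* was at 6.19 FPKM, where *Irak1bp1* was at 7.47 FPKM in the mutant. Nothing can be said from these about a genotype difference.

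Genes listed beforehand as cofactors or regulators of the 10 factors were measured beside them. Of 25 genes, all had a mean of at least 1 FPKM in the mutant, with a median of 4.91 FPKM. *Spop*, the adaptor of the ubiquitin ligase that targets PDX1, was at 31.3 ± 2.12 FPKM, *Ssbp4*, which joins the LIM domain complex of ISL1, at 25.7 ± 3.84 FPKM, and *Smarca4*, the ATPase of the SWI/SNF complex that PDX1 recruits, at 24.0 ± 3.66 FPKM (SD, n = 5). A wild-type row was found for 10 of them, all by length and level. Of these, 0 were called in limma and 0 had an unadjusted p under 0.05, beside 4.88% of all genes placed in this way. As most genes with a low p were placed by the supplementary reads instead, this count is a description. The log2 differences of the 10 genes lay between -0.16 and 0.19 with a median of -0.07, beside 0.04 over all genes placed in this way.

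Of 46 other transcription factors of islets and pancreas, 42 were in the table and 31 had a mean of at least 1 FPKM. Among the most abundant were *Peg3*, an imprinted zinc finger gene, at 47.0 ± 3.08 FPKM, and *Mlxipl*, the glucose-responsive factor ChREBP, at 14.5 ± 1.52 FPKM. None of the 15 with a wild-type row was called in limma. The 9 placed by length and level had log2 differences between -0.28 and 0.37 with a median of 0.13. Among these 9, 0 had an unadjusted p under 0.05, beside 4.88% of all genes placed so, and this too is a description. *Peg3* was at 43.1 ± 4.24 FPKM in wild-type, a log2 difference of 0.13. All 6 genes with an unadjusted p under 0.05, 2 with higher and 4 with lower means in the mutant, were placed by the supplementary reads and are descriptions, beside 38.6% higher and 48.5% lower of all genes placed so. Among them *Myt1* (3.26 against 2.64 FPKM) and *Pou3f4* (0.269 against 0.139 FPKM) had higher means in the mutant, and *Ovol2*, *Klf4* (1.11 against 1.80 FPKM) and *Tcf3* lower ones.

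Genes known as targets of the 10 factors had a median level of 81.1 FPKM in the mutant. Of 33 genes, 30 were in the table. *Ins2* was at 152890 ± 19886 FPKM in the mutant and 136382 ± 18579 FPKM in wild-type, and *Ins1* at 83478 ± 11125 and 77249 ± 14999 FPKM, log2 differences of 0.17 and 0.13 with exact permutation p of 0.20 and 0.42 (n = 5 against 6). *Iapp*, the amylin gene, was at 35412 ± 11803 FPKM in the mutant, with 56328 FPKM in replicate 2 and 28444 to 31927 FPKM in the others. *Slc2a2*, the glucose transporter, was at 75.8 ± 12.6 FPKM and *Kcnj11*, the pore of the ATP-sensitive potassium channel, at 42.5 ± 4.81 FPKM in the mutant, and their wild-type rows were not identified. Of the 16 target genes with a wild-type row 0 were called in limma, and the 11 placed by length and level had a median log2 difference of 0.07. The supplementary reads placed *Nptx2* (1.82 against 4.68 FPKM), *Ffar1*, *Cacna1c*, *Scg2* (1487 against 1062 FPKM) and *Iapp*. All but *Iapp* had an unadjusted p under 0.05, with 1 higher and 3 lower in the mutant. Of all genes placed so, 38.6% were higher and 48.5% lower at that p, and these values are descriptions.

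RNAs next to the 10 genes were read last. *Pax6os1*, antisense to *Pax6*, was at 9.40 ± 1.49 FPKM in the mutant with its highest value, 12.0 FPKM, in replicate 2. *Paupar*, a long noncoding RNA upstream of *Pax6*, was at 1.06 ± 0.139 FPKM against 0.745 ± 0.129 FPKM in wild-type, and *Elp4*, the neighbour of *Pax6*, at 7.28 ± 1.16 against 5.54 ± 0.636 FPKM. Both were placed by the supplementary reads and are descriptions, with log2 differences of 0.46 and 0.38 and adjusted p of 0.50 in limma, beside 0.08 for *Pax6*. *Nkx2-2os* was near 0 at 0.0097 FPKM. The study names library protocols with and without strand, so reads of antisense partners may be shared.

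**Figure D5:**
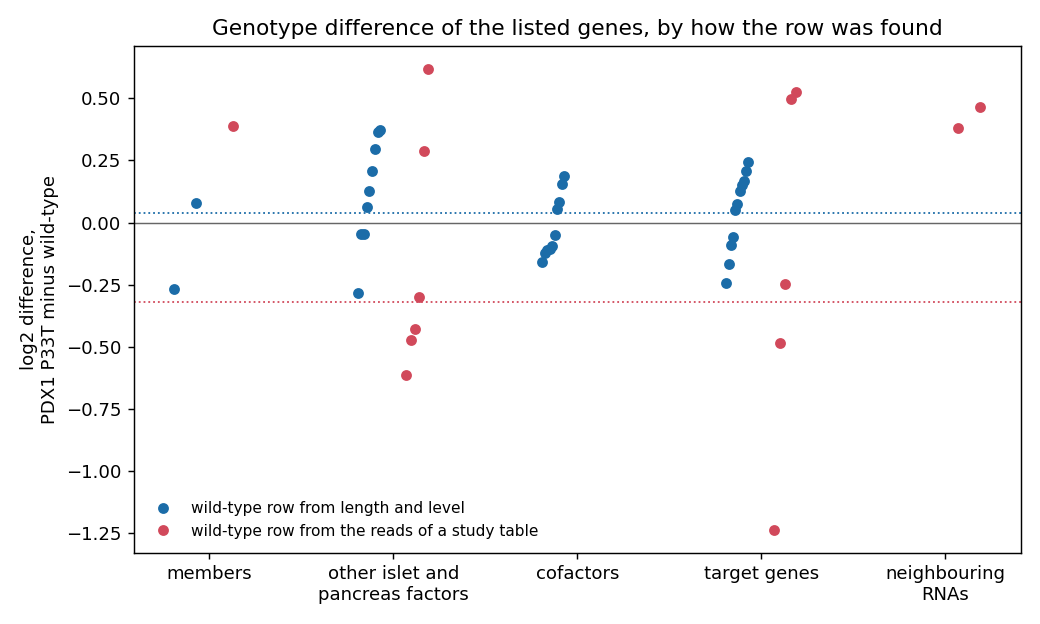
Log2 difference, PDX1 P33T minus wild-type, of each listed gene with a wild-type row, by list. Blue points were placed by length and level and red points by the supplementary reads, and dotted lines are the medians of all genes placed in each way, 0.04 and -0.32. Blue points stay between -0.28 and 0.37, and the wider red points include *Nptx2* at -1.24.

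Likeness of pattern was measured as the root mean square distance of centred log2 values over the 5 mutant libraries, among 40 other genes of the set and the list of islet factors. The nearest gene to *Nkx6-1* was *Tshz1* (0.025), to *Nkx2-2* *Mlxipl* (0.029), to *Pdx1* *Foxa3* (0.029), to *Foxa2* *Glis3* (0.041) and to *Mafa* *Hnf4a* (0.049). Distances were larger for *Pax6* with *Mnx1* and *Tcf12* (0.065 for each), *Neurod1* with *Peg3* (0.086), *Insm1* with *Ovol2* (0.086), *Isl1* with *Myt1* (0.090) and *Rfx6* with *Esrrg* (0.10). Without replicate 2, 2 genes kept the same nearest gene, *Nkx6-1* and *Insm1*, while *Pdx1* and *Nkx2-2* became nearest to each other at 0.012. With 5 libraries, 4 of them in close pairs, these distances describe the libraries as much as the genes.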

How the data were processed

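Per the methods and the submitters' processing notes, reads were filtered with fastp 0.23.1, aligned with HISAT2 2.0.5 to GRCm39 (mm39) and counted with featureCounts 1.5.0-p3. The authors deposited FPKM per library, and kept a gene if 80% or more of a condition's replicates had a value. The design allowed for FPKM or counts, and as FPKM were held no count model was run. The members and lists were chosen with earlier results of these data known, and the named genes are the members, called genes, and the 3 most abundant of each list with *Ins1*, *Ins2*, *Slc2a2* and *Kcnj11*. Some results of the lists are not reported here.

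Library totals and gene lengths were recovered from the FPKM steps. The recovered length equalled the exon length in GENCODE vM21 (GRCm38), from which GC content, transcript lengths and the sequence of the edit were taken, for 92.0% of 18442 genes. Wild-type rows were put back by matching them to the reads of a supplementary table (first 1749 rows, no value of it used as a result) or by length, with at least 100 reads in each genotype, means within 4-fold and no other candidate within 16-fold. Of the latter, 403 could be checked, 403 right and 0 wrong. limma 3.58.1 (R 4.3.3, trend and robust) was fitted to log2(FPKM + 0.1) for 4725 genes, 6 wild-type against 5 PDX1 P33T libraries, with Benjamini-Hochberg adjustment over 19329 IDs, those not placed taken as unchanged, which can make an adjusted p too high. A fold change is on the log2(FPKM + 0.1) scale. The fit was tested on simulated data, where it missed most changes of 1.5-fold, so a gene without a call may still differ. Single genes had a two-sided exact permutation test over 462 splits (smallest p 0.0043). Python 3.11.15, numpy 2.4.6, pandas 2.3.3, scipy 1.17.1 and matplotlib 3.10.9 made tables and plots. Intervals cover the spread between libraries, and counting errors cover counting only. The per-sample files and the blank rows of the table were not used.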

Additional observations from a re-analysis of the deposited data

Results flagged for a closer look

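Of 51 sets of values tested, 9 had a library farther from the rest than Dixon's 95% limit, and 6 of the 9 were PDX1 P33T replicate 2. Chance gives about 1 in 20 for independent sets, but these sets share the same libraries. PDX1 P33T replicate 2 was the highest or lowest mutant library for 78.3% of 11190 genes. For the beta cell factors this library was low for *Mafa*, at 203 FPKM against 266 to 287 FPKM, and for *Nkx2-2*, at 32.2 FPKM against 39.4 to 40.5 FPKM. It was also low for *Mlxipl* (11.8 FPKM) and *Smarca4* (17.5 FPKM), and high for *Iapp* (56328 FPKM) and *Pax6os1* (12.0 FPKM). In wild-type islets, replicate 2 was far above the others for *Mafa*, at 453 FPKM. Wild-type replicate 1 was far above the others for *Isl1*, at 29.6 FPKM, and for *Elp4*, at 6.72 FPKM.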

How the results depend on the processing

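The levels of the 10 genes moved by less than 1 SD under 70 alternatives of libraries and scaling, but not with the length of the longest transcript, which took *Pax6* from 19.5 to 51.6 FPKM, *Nkx2-2* from 38.4 to 52.1 FPKM and *Isl1* from 27.2 to 42.9 FPKM and left 6 genes at their place in the order. Of 80 values of spread 68 stayed within 1.5 times, and 6 of the others were those without PDX1 P33T replicate 2. Of 98 alternatives for the genotype differences 97 kept the sign and gave no call, with log2 differences from -0.32 to 0.10 for *Mafa*, 0.03 to 0.12 for *Pax6*, 0.26 to 0.48 for *Rfx6* and 0.04 to 0.22 for *Isl1*. Some of the alternatives, such as another row rule or fold threshold, leave the estimate of a gene as it was, so its sign was fixed there. The 1 that reversed was *Mafa* at 0.10 with the GC trend taken out, and the cause was not tested.

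The count of genes called higher, 2, was 1 with a pseudocount of 0.01 FPKM or a mean of at least 1 FPKM, and 0 with a log2 fold change of 1.5 or more, with the close pairs averaged or with genes placed by length and level alone. The count called lower, 2, was 1 with wild-type rows within 2-fold, with the pairs averaged or with length and level alone. With the 4-fold rule, under which more genes were tested, 4 were higher and 4 lower. Leaving out libraries in turn gave 1 to 3 higher and 2 to 5 lower, with 5 lower and 3 higher without wild-type replicate 1.

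With a replicate block by the numbers of the titles 0 were higher and 1 lower, and by those of the library names 1 was higher. Same-numbered libraries shared only a number, since their deviations had r from -0.60 to 0.12. The block gave *Mafa* -0.29 by either number. An alignment of wild-type rows by row order was not run. With 5 and 6 libraries, the 95% interval of *Mafa* spans fold changes from 0.669 to 1.03.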
